A study of Mus musculus with 40 samples.

Results

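The genes described here are 6 genes of lipid handling, Mfsd2a, Pla2g3, Pld1, Mboat1, Phyhd1 and Cyp4f15, out of 25239 genes counted in nuclei of astrocytes from mouse primary visual cortex. They were picked by symbol because their level differed between astrocytes with and without the glucocorticoid receptor (GR), a nuclear receptor for corticosterone encoded by Nr3c1. The difference between genotypes is therefore what selected them, and it is given below as a description with no p value. All 6 passed the filter on low counts that left 17106 genes.

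Each library held RNA of sorted, GFP-positive nuclei pooled from 1 male and 1 female mouse. All mice carried floxed GR alleles (GR fl/fl) and received a neonatal AAV with the astrocyte promoter GfaABC1D, driving active Cre in the GR-KO groups and the inactive deletion form ΔCre in the GR-Con groups. Mice were dark-reared (DR), kept in constant darkness until collection, or normally reared (NR) in a light cycle, and were collected at postnatal day 14, 21 or 28 (P14, P21, P28). This made 12 groups and 40 libraries, with 4 libraries in each DR group at P21 and P28 and 3 in each of the other 8 groups.

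The effect of Cre activity and that of GR loss cannot be told apart in this design, and in pooled nuclei fewer cells of a type and less RNA per cell cannot be told apart either. The labels do not say whether pools of 1 group came from separate litters, so p values measure the spread between these pools. Library totals ran from 17240294 to 49221787 counts, and values below are CPM, a gene's reads as a share of its library with TMM scaling, counted over the whole gene body with introns. The 10 astrocyte markers summed to 9940 to 14230 CPM in GR-KO and 11780 to 16050 CPM in GR-Con, with medians over libraries from 20.9 CPM (S100b) to 9111 CPM (Slc1a2). Neuronal RNA was present too, with sums over 10 markers of 1759 to 3538 CPM in GR-KO and 2240 to 3624 CPM in GR-Con. Syt1 had 492 to 1012 CPM and Aldh1l1 222 to 381 CPM. These values are not scaled by gene length, so they do not rank neuronal against astrocyte RNA. The GR target Tsc22d3 ranged from 22.7 to 53.2 CPM in GR-KO and from 29.8 to 149 CPM in GR-Con, whereas Nr3c1 itself had 204 to 309 CPM in GR-KO and 209 to 275 CPM in GR-Con. Counts over a whole gene body do not measure recombination of the floxed part. A library from P14 NR GR-KO, replicate 3, had 0.387 CPM of Y-linked genes in sum, against at least 89.1 CPM in every other library, at odds with a pool of both sexes.

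Astrocytes take up, remodel and oxidise fatty acids for the brain. A phospholipid can be opened by a phospholipase A2, which frees a fatty acid and leaves a lysophospholipid, or by a phospholipase D, which leaves phosphatidic acid. Acyltransferases close the cycle by putting a fatty acid back on the lysophospholipid, and oxygenases hydroxylate fatty acids and the eicosanoids made from them. Glucocorticoids are known in other tissues for their control of lipid uptake, storage and eicosanoid release. GR acts by binding paired half-sites resembling AGAACA or by joining other factors on DNA.

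By role, Mfsd2a carries lysophosphatidylcholine with omega-3 fatty acids across membranes and is best known from the endothelium of the blood-brain barrier. Pla2g3 is a secreted phospholipase A2. Pld1 splits phosphatidylcholine into phosphatidic acid and choline. Mboat1 belongs to the membrane-bound O-acyltransferases and acylates lysophospholipids. Phyhd1 is an oxygenase related to Phyh, the peroxisomal phytanoyl-CoA hydroxylase. Cyp4f15 belongs to the cytochrome P450 subfamily that hydroxylates fatty acids and eicosanoids.

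In the GENCODE annotation of GRCm38 (mm10) the 6 genes lie on 6 chromosomes: Mfsd2a at chr4:122946850-122961188 on the minus strand, and on the plus strand Pla2g3 at chr11:3488284-3499350, Pld1 at chr3:27938695-28133362, Mboat1 at chr13:30136489-30246717, Phyhd1 at chr2:30266203-30282149 and Cyp4f15 at chr17:32685627-32703352. Their bodies span 11.1 kb (Pla2g3) to 195 kb (Pld1). The opposite-strand gene Inpp5j covers 45% of Pla2g3. How strand was handled in counting was not stated, so it is not known for which gene, if either, reads of the overlap were counted. Among protein-coding genes lying wholly inside other genes of the table, 450 of 702 (64.1%) had no count in any library, against 1384 of 15313 (9.04%) of those with no such overlap. Phyhd1 lies within the annotated read-through gene Gm28035 on the same strand, which has no row in the table used here.

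Promoter sequence was matched by symbol in RefSeq (GRCm38.p6) for 5 of the 6 genes, all but Pla2g3. Windows before the gene start, trimmed at the GENCODE start of the gene and the first of each gene in the table, are shown for Mfsd2a, Phyhd1 and Cyp4f15, whose levels moved most alike over the 12 groups, and for Pld1, the only gene with an AGAACA half-site in its window. Both strands were searched for AGAACA, for CCAAT, for TATAAA and for a full element of AGAACA, any 3 bases and TGTTCT, which contains the half-site, and capitals mark the matches (ATTGG is CCAAT on the other strand). The sequences run 5′ to 3′ on the gene's strand, at chr4:122961189-122961438 (minus), chr2:30265953-30266202 (plus), chr17:32685409-32685626 (plus) and chr3:27938430-27938679 (plus).
Mfsd2a: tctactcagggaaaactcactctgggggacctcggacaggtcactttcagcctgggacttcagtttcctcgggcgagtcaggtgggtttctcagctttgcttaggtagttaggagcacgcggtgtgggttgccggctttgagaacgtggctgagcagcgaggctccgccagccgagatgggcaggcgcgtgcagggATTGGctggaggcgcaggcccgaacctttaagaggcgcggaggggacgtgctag
Phyhd1: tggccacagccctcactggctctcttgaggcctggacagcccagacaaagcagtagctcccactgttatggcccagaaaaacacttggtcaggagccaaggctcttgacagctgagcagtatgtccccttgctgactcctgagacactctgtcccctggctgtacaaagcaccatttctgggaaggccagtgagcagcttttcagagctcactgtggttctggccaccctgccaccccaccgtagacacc
Cyp4f15: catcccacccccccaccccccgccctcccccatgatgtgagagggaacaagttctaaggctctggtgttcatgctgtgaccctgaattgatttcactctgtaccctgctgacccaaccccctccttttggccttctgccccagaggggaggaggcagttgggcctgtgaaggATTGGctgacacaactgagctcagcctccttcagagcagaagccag
Pld1: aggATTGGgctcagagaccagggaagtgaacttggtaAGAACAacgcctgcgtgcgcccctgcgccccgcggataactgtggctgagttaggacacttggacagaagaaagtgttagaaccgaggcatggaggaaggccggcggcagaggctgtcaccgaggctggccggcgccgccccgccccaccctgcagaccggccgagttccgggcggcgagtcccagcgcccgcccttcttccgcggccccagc

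Counted from the RefSeq start, CCAAT lies at position -54 in Mfsd2a, -78 in Cyp4f15, -247 in Pld1 and -7 in Mboat1, whose window is not shown. Of 32851 RefSeq windows searched the same way, 33.8% hold CCAAT. The half-site AGAACA lies at position -213 in Pld1, and 16.1% of windows hold one. TATAAA, in 12.4% of windows, and the full element, in 3 windows (0.00913%), matched in none of the 5 genes. These are matches of letters only.

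At P21 under NR the 6 genes ranged widely in level. Per kilobase of gene body, the GR-Con means were 9.98 CPM for Cyp4f15, 6.46 for Phyhd1, 3.46 for Mfsd2a, 0.730 for Pla2g3, 0.429 for Pld1 and 0.0189 for Mboat1. Mboat1 was thus the least abundant by length, with 20 to 306 counts in a library. For Pla2g3 the length includes the part shared with Inpp5j. In the comparison of genotypes, a gene was called at a Benjamini-Hochberg adjusted p below 0.05 over all genes in edgeR's quasi-likelihood test and an absolute log2 fold change above 0.1.

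Of the 6 genes, 3 were called in GR-KO against GR-Con at P14 under NR (1.11% of all genes called), 6 at P21 (7.23%) and 4 at P28 (4.94%). Under DR the counts were 3 at P14 (0.275%), 6 at P21 (6.68%) and 5 at P28 (2.84%). The 6 at P21 were 1 higher and 5 lower, against 4.67% of all genes higher and 2.57% lower under NR and 4.30% higher and 2.38% lower under DR. Since these contrasts selected the genes, nothing is read from these counts. Every call was for a lower level in GR-KO except that of Mboat1, called higher at P21 under NR and DR, so a name that says these genes need GR holds for 5 of them at most. Among marker lists at P21 under NR, edgeR called 1 of 10 astrocyte markers higher and 2 lower, and 0 of 10 neuronal, 10 oligodendrocyte, 5 oligodendrocyte precursor, 8 microglial and 8 pericyte and smooth muscle markers. Of those lists with 0 calls, 2, 1, 1, 1 and 3 markers had an unadjusted p below 0.05, and DESeq2 called 0, 0, 1, 0 and 1. Neuronal sums were 2138 to 3424 CPM in GR-KO and 3532 to 3624 CPM in GR-Con (median log2 fold change -0.35), without overlap. Oligodendrocyte sums were also lower without overlap, at 697 to 1017 CPM in GR-KO and 1046 to 1248 CPM in GR-Con (-0.42). The same held for precursors (53.4 to 66.0 and 68.9 to 76.2 CPM, -0.15) and microglia (50.65 to 66.4 and 68.3 to 78.5 CPM, -0.38). Pericyte and smooth muscle sums overlapped (113.9 to 151.5 and 112 to 124.2 CPM, -0.27). Endothelial and ependymal markers are given beside Mfsd2a and Mboat1, and the part of other cells in the values of the 6 genes was not tested.

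**Figure D1:**
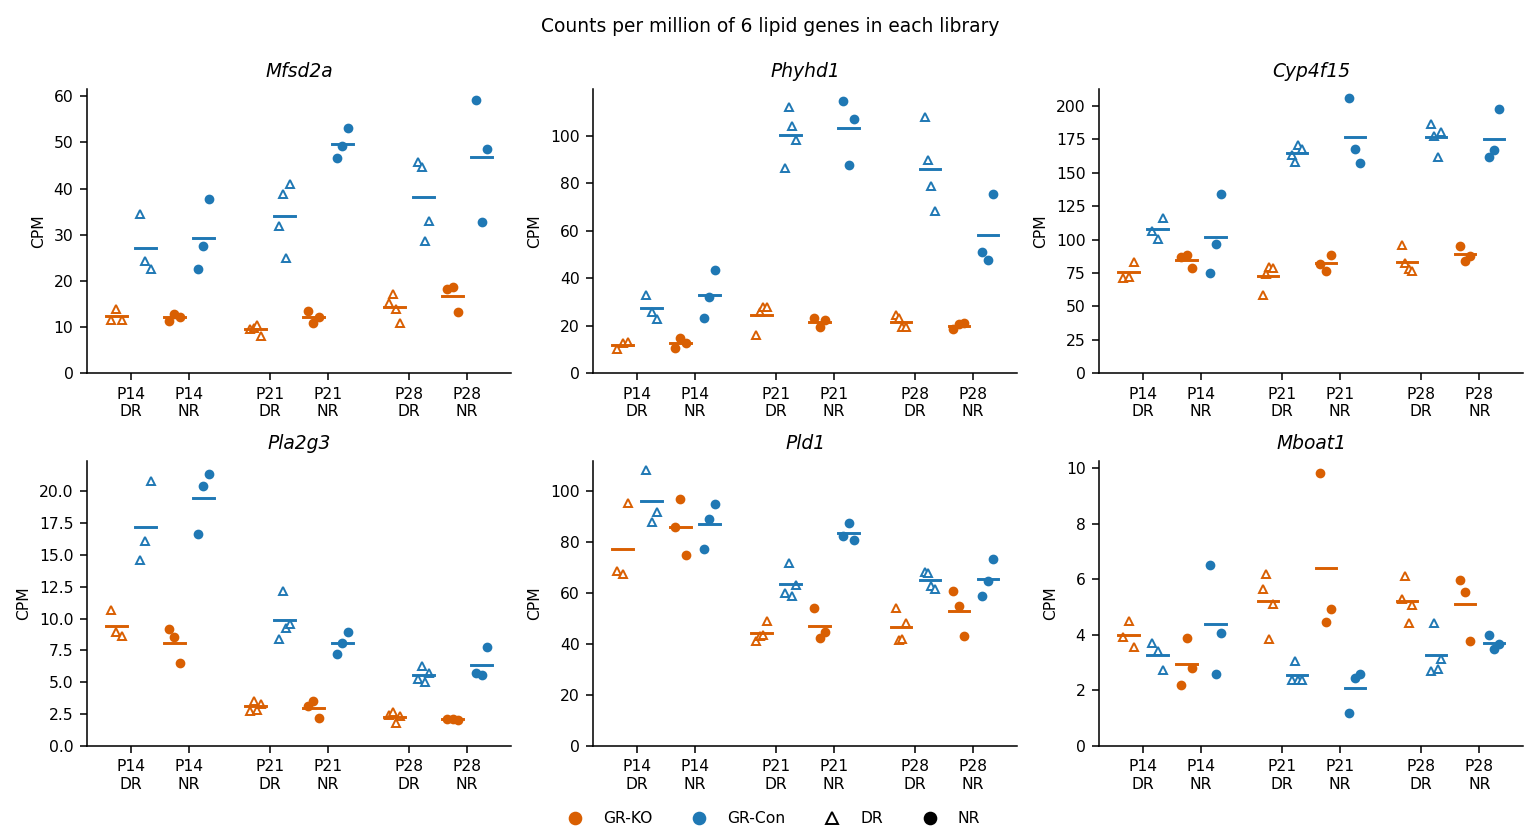
CPM of the 6 genes in each library, by age and rearing, with GR-KO (orange) left of GR-Con (blue); open triangles are DR libraries, filled circles NR libraries and bars group means. All 20 GR-KO libraries lie below all 20 GR-Con libraries for Mfsd2a, and Mboat1 has its highest library, 9.82 CPM, in P21 NR GR-KO.

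Mfsd2a, the transporter, was the gene whose genotypes stood furthest apart as libraries. All 20 GR-KO libraries, at 8.15 to 18.8 CPM, lay below all 20 GR-Con libraries, at 22.6 to 59.1 CPM. At P14 under NR the GR-KO libraries had 11.3, 12.9 and 12.3 CPM, against 22.6, 27.6 and 37.8 CPM in GR-Con (log2 fold change -1.27 ± 0.213, SE). The P21 NR libraries had 13.6, 10.9 and 12.2 CPM in GR-KO, against 46.7, 49.2 and 53.2 CPM in GR-Con (-2.02 ± 0.221). This was the widest gap of the 6 comparisons for this gene, a 4.07-fold higher mean in GR-Con. P28 NR libraries had 18.2, 18.8 and 13.2 CPM in GR-KO, against 59.1, 32.8 and 48.6 CPM in GR-Con (-1.49 ± 0.209). Dark-reared pools showed the same order of genotypes at each age. At P14 under DR there were 11.6, 14.01 and 11.6 CPM in GR-KO, against 34.6, 24.4 and 22.6 CPM in GR-Con (-1.13 ± 0.213). The P21 DR values were 9.66, 9.92, 10.5 and 8.15 CPM in GR-KO, against 31.9, 38.9, 24.9 and 40.9 CPM in GR-Con (-1.83 ± 0.186). At P28 under DR they were 15.3, 17.3, 13.9 and 10.9 CPM in GR-KO, against 45.8, 44.8, 28.7 and 33.0 CPM in GR-Con (-1.41 ± 0.181). GR-KO libraries of every age and rearing thus spanned fewer CPM than GR-Con libraries, whose level was higher. Within a group the SD was 6.82% to 18.8% of the mean in GR-KO and 6.6% to 28.2% in GR-Con. This share was larger in GR-Con at every age and rearing except P21 under NR (10.9% in GR-KO and 6.6% in GR-Con). Ordered by mean, the 6 GR-KO groups ran from 9.56 CPM (P21 DR) to 16.7 CPM (P28 NR), with neighbours overlapping except between P21 DR and P14 NR, and the 6 GR-Con groups from 27.2 CPM (P14 DR) to 49.7 CPM (P21 NR), each overlapping the next.

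Mfsd2a is also an endothelial gene, so endothelial markers were followed beside it. All 10 markers of that list were in the table and none was at 0 in any library, but Cldn5 had only 0.603 to 4.30 CPM and Pecam1 1.63 to 5.99 CPM. Their summed level at P21 under NR was 66.7 to 73.5 CPM in GR-KO, against 82.5 to 106 CPM in GR-Con, with 2 of 10 called lower, Pecam1 and Slc2a1, and a median log2 fold change of -0.56. At P21 under DR the sums were 63.6 to 78.6 CPM in GR-KO, against 87.6 to 94.8 CPM in GR-Con, and Slc2a1 alone was called lower (median -0.33). Slc2a1 was also called lower at P28 under NR, where the sums were 87.5 to 124 CPM in GR-KO and 113 to 135 CPM in GR-Con (median -0.07). P14 NR sums were 63.5 to 73.0 CPM in GR-KO and 82.1 to 98.0 CPM in GR-Con (median -0.54), with 0 markers called by edgeR or DESeq2 but 6 of 10 at an unadjusted p below 0.05. At P14 under DR, where Mfsd2a differed by -1.13, the sums overlapped at 65.7 to 85.4 CPM in GR-KO and 63.1 to 77.7 CPM in GR-Con, with a median of 0.11 and 0 called by edgeR or DESeq2 or at an unadjusted p below 0.05. At P28 under DR, where it differed by -1.41, they overlapped as well, at 87.1 to 125 CPM in GR-KO and 81.6 to 143 CPM in GR-Con (median -0.12, 0 called by edgeR or DESeq2 and 1 at an unadjusted p below 0.05). Slc2a1 alone made up most of these sums, with means at P21 under NR of 41.8 CPM in GR-KO and 56.5 CPM in GR-Con. The part of endothelial RNA in the Mfsd2a values was not tested in any of the 6 comparisons.

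**Figure D2:**
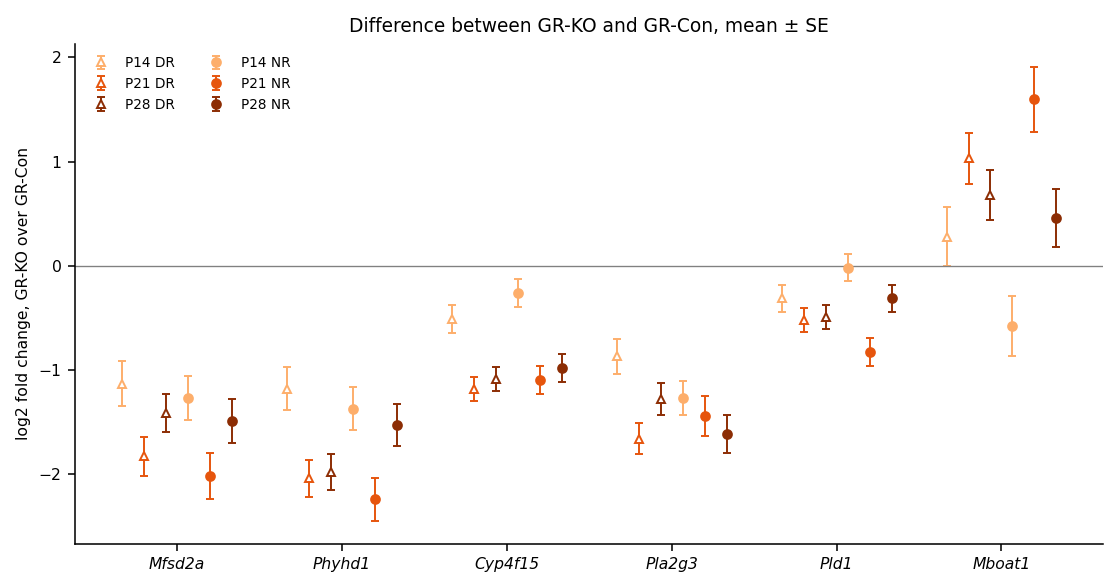
Log2 fold change of GR-KO over GR-Con for the 6 genes at each age and rearing (open triangles DR, filled circles NR; darker colours for later ages), with SE from the edgeR fit. Mfsd2a and Phyhd1 reach -2.02 and -2.24 at P21 under NR, and Mboat1 is above 0 everywhere except at P14 under NR.

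Pla2g3, the secreted phospholipase A2, was lower in every GR-KO library than in any GR-Con library of the same age and rearing. At P14 under NR it had 9.17, 8.58 and 6.52 CPM in GR-KO, against 16.7, 20.4 and 21.4 CPM in GR-Con (log2 fold change -1.27 ± 0.165, SE). P21 NR libraries had 3.16, 3.51 and 2.19 CPM in GR-KO, against 7.18, 8.06 and 8.97 CPM in GR-Con (-1.44 ± 0.189). The P28 NR libraries had 2.08, 2.14 and 2.02 CPM in GR-KO, against 5.71, 5.59 and 7.79 CPM in GR-Con (-1.61 ± 0.182). Levels at P21 and P28 were low in both genotypes compared with P14. Under DR at P14 the values were 10.7, 8.94 and 8.60 CPM in GR-KO, against 14.6, 16.1 and 20.9 CPM in GR-Con (-0.87 ± 0.164). P21 DR pools had 2.77, 3.56, 2.84 and 3.28 CPM in GR-KO, against 8.41, 12.1, 9.29 and 9.61 CPM in GR-Con (-1.66 ± 0.150). At P28 under DR there were 2.40, 2.65, 1.77 and 2.35 CPM in GR-KO, against 5.24, 6.25, 5.05 and 5.75 CPM in GR-Con (-1.28 ± 0.155). GR-KO at P14 had about the level of GR-Con at P21, with means of 8.09 CPM in P14 NR GR-KO and 8.07 CPM in P21 NR GR-Con. The overlapping gene Inpp5j, an inositol polyphosphate phosphatase, was likewise lower in GR-KO, by less at each age and rearing. Its mean at P21 under NR was 14.3 ± 1.91 CPM in GR-KO and 26.7 ± 0.937 CPM in GR-Con (SD, n = 3 each; log2 fold change -0.90 ± 0.125, SE), and over the 6 comparisons its log2 fold change ran from -0.90 to -0.46.

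Pld1, the phospholipase D, was called in 3 of the 6 comparisons. At P14 under NR its libraries overlapped, with 85.9, 96.6 and 75.0 CPM in GR-KO, against 77.2, 88.8 and 94.8 CPM in GR-Con (log2 fold change -0.02 ± 0.129, SE). At P21 under NR they were apart, with 54.0, 42.2 and 44.5 CPM in GR-KO, against 82.3, 87.4 and 80.8 CPM in GR-Con (-0.83 ± 0.133). P28 NR libraries overlapped again, at 60.6, 54.9 and 42.9 CPM in GR-KO, against 58.8, 64.6 and 73.0 CPM in GR-Con (-0.31 ± 0.130). Pld1 was therefore called under NR at P21 alone. P14 DR libraries had 68.6, 67.5 and 95.2 CPM in GR-KO, against 108, 87.7 and 91.5 CPM in GR-Con (-0.31 ± 0.129, not called). Those at P21 under DR had 41.2, 43.0, 43.4 and 48.7 CPM in GR-KO, against 59.9, 71.6, 58.9 and 63.2 CPM in GR-Con (-0.52 ± 0.113). P28 DR libraries had 54.2, 41.6, 42.0 and 48.1 CPM in GR-KO, against 68.0, 67.6, 62.8 and 61.6 CPM in GR-Con (-0.49 ± 0.113). At P21 and P28 under DR no library of one genotype reached the other. When the 12 groups were ordered by mean, from 44.1 CPM (P21 DR GR-KO) to 95.9 CPM (P14 DR GR-Con), every group overlapped its neighbour.

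Mboat1, the acyltransferase, differed in the other direction from the rest. At P21 under NR it had 9.82, 4.47 and 4.91 CPM in GR-KO, against 1.20, 2.45 and 2.60 CPM in GR-Con (log2 fold change 1.60 ± 0.312, SE). Replicate 1 of GR-KO lay far above the other replicates of its group, and without any one library of the comparison the value ran from 1.14 to 1.80. P21 DR libraries had 5.64, 6.19, 3.85 and 5.11 CPM in GR-KO, against 2.36, 3.07, 2.38 and 2.37 CPM in GR-Con (1.03 ± 0.245). At P28 under DR there were 5.29, 6.10, 4.43 and 5.08 CPM in GR-KO, against 2.68, 4.42, 2.77 and 3.14 CPM in GR-Con (0.68 ± 0.240, not called), the groups just failing to overlap. The remaining comparisons overlapped. P14 NR libraries had 2.18, 3.89 and 2.79 CPM in GR-KO, against 6.50, 2.58 and 4.05 CPM in GR-Con (-0.58 ± 0.287). P14 DR libraries had 3.90, 4.49 and 3.54 CPM in GR-KO, against 3.70, 3.39 and 2.71 CPM in GR-Con (0.28 ± 0.286). At P28 under NR the values were 5.96, 5.55 and 3.76 CPM in GR-KO, against 3.98, 3.48 and 3.65 CPM in GR-Con (0.46 ± 0.279). Ordered by mean, from 2.08 CPM (P21 NR GR-Con) to 6.40 CPM (P21 NR GR-KO), each of the 12 groups overlapped the next. At P21 under NR, ependymal and choroid plexus markers moved as well, with sums of 18.7 to 87.5 CPM in GR-KO and 8.44 to 10.4 CPM in GR-Con and 3 of 10 called higher (median 1.90). Their part in the Mboat1 value was not tested. At P21 under DR the same sums overlapped at 11.5 to 17.7 CPM in GR-KO and 9.12 to 75.7 CPM in GR-Con, 1 of 10 markers was called lower, and Mboat1 was again higher in every GR-KO library.

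Phyhd1, the oxygenase related to Phyh, had the lowest log2 fold change of the 6 genes at P21 under both rearings. At P14 under NR its libraries had 10.5, 14.8 and 12.8 CPM in GR-KO, against 23.2, 32.0 and 43.4 CPM in GR-Con (log2 fold change -1.37 ± 0.207, SE). P21 NR libraries had 23.3, 19.6 and 22.4 CPM in GR-KO, against 114, 87.7 and 107 CPM in GR-Con (-2.24 ± 0.208). The P28 NR libraries had 18.5, 20.8 and 21.02 CPM in GR-KO, against 51.2, 47.6 and 75.4 CPM in GR-Con (-1.53 ± 0.202). The fitted GR-Con level was 4.73-fold that of GR-KO at P21 and 2.89-fold at P28. Under DR at P14 there were 10.3, 13.0 and 13.1 CPM in GR-KO, against 33.1, 25.9 and 23.1 CPM in GR-Con (-1.18 ± 0.207). P21 DR libraries had 16.1, 25.8, 28.01 and 27.9 CPM in GR-KO, against 86.2, 112, 104 and 98.3 CPM in GR-Con (-2.04 ± 0.175). Those at P28 under DR had 24.7, 23.2, 19.6 and 19.6 CPM in GR-KO, against 108, 89.6, 78.7 and 68.1 CPM in GR-Con (-1.98 ± 0.175). No library of one genotype reached the other in any of the 6 comparisons. By mean, the 6 GR-KO groups, at 12.1 to 24.5 CPM, were all below the 6 GR-Con groups, at 27.4 to 103 CPM.

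Cyp4f15, the P450 hydroxylase, was called at P21 and P28 but not at P14. At P14 under NR its libraries overlapped, with 86.7, 88.4 and 78.7 CPM in GR-KO, against 74.7, 96.4 and 134 CPM in GR-Con (log2 fold change -0.26 ± 0.133, SE, not called). P14 DR libraries did not overlap, with 71.2, 72.3 and 83.5 CPM in GR-KO, against 106, 100.4 and 116 CPM in GR-Con (-0.51 ± 0.133), but were not called either. From P21 on, every GR-Con library was far above the GR-KO libraries. P21 NR libraries had 81.9, 76.5 and 88.5 CPM in GR-KO, against 206, 168 and 158 CPM in GR-Con (-1.10 ± 0.135). The P28 NR libraries had 94.9, 84.1 and 87.7 CPM in GR-KO, against 162, 167 and 198 CPM in GR-Con (-0.98 ± 0.134). At P21 under DR they had 58.6, 74.0, 79.8 and 78.6 CPM in GR-KO, against 163, 158, 171 and 168 CPM in GR-Con (-1.18 ± 0.116). Over all ages GR-KO libraries lay between 58.6 and 95.7 CPM. P28 DR libraries had 95.7, 82.8, 77.7 and 76.3 CPM in GR-KO, against 186, 178, 162 and 181 CPM in GR-Con (-1.09 ± 0.116). The 4 GR-Con groups at P21 and P28, with means of 165 to 177 CPM, overlapped each other, as did the 6 GR-KO groups with their neighbours at 72.8 to 88.9 CPM.

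Age was not used to choose the genes, although the age comparisons share libraries with the contrasts that did. A gene was called between ages at an adjusted p below 0.05 and an absolute log2 fold change above 0.3. For P21 over P14 under NR, 4 of the 6 genes were called in GR-KO (10.0% of all genes) and 5 in GR-Con (13.7%). Under DR, 3 were called in GR-KO (11.5%) and 4 in GR-Con (13.2%). The median log2 fold change of the 6 genes was -0.02 in GR-KO and 0.35 in GR-Con under NR, and -0.22 in GR-KO and -0.02 in GR-Con under DR, against -0.032 to -0.001 for all genes, because some members rose with age and others fell. Markers of other cells moved with age as well. For P21 over P14, 9 of 10 oligodendrocyte markers were called higher in each of the 4 settings, with medians of 1.53 to 1.86, and 4 to 6 of 10 neuronal markers were called, in both directions (medians 0.08 to 0.24). Their part in the age changes of the 6 genes was not tested.

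**Figure D3:**
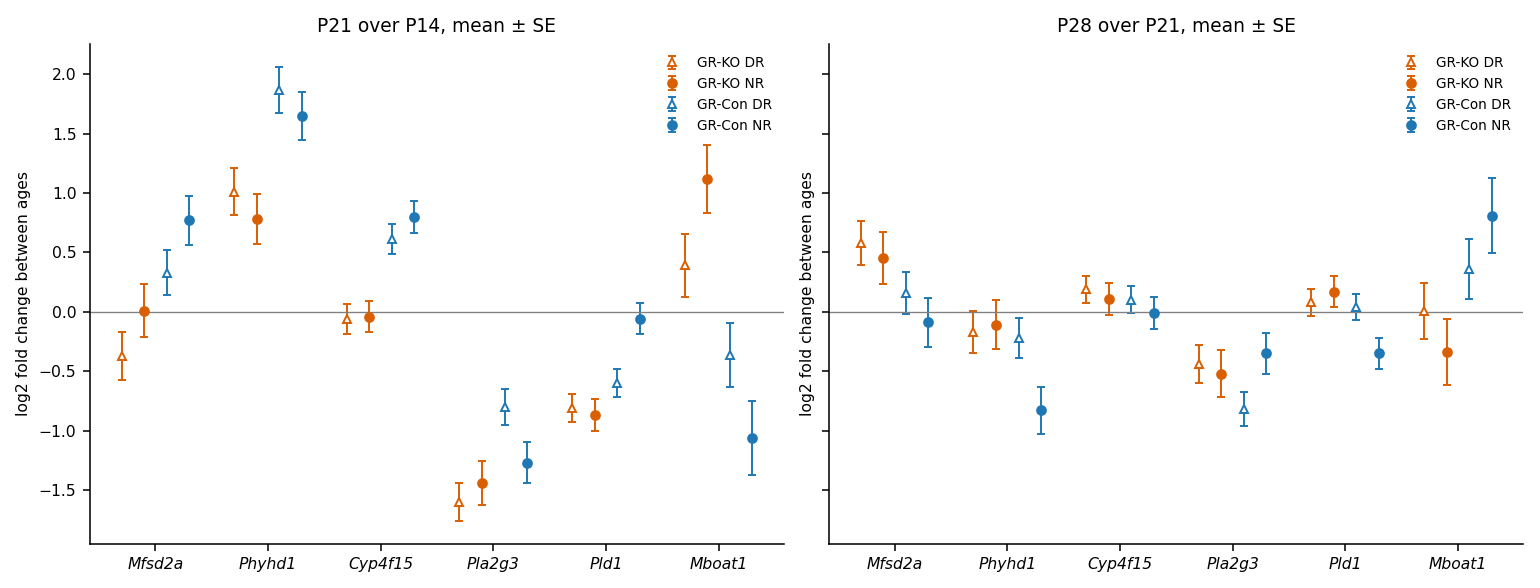
Log2 fold change between ages, P21 over P14 on the left and P28 over P21 on the right, in GR-KO (orange) and GR-Con (blue) under DR (open triangles) and NR (filled circles), with SE from the edgeR fit. Phyhd1 is above 0 and Pla2g3 below 0 in all 4 settings at P21 over P14, and most values at P28 over P21 are nearer 0.

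Pla2g3 fell between P14 and P21 in both genotypes and both rearings. In GR-KO it fell to 2.95 ± 0.684 CPM at P21, against 8.09 ± 1.39 CPM at P14 under NR (SD, n = 3 each; log2 fold change -1.44 ± 0.185, SE, adjusted p = 1.76e-06), and to 3.11 CPM, against 9.40 CPM, under DR (-1.60 ± 0.160, adjusted p = 9.61e-09). In GR-Con it fell to 8.07 CPM at P21, against 19.5 CPM at P14 under NR (-1.27 ± 0.170, adjusted p = 2.22e-06), and to 9.86 CPM, against 17.2 CPM, under DR (-0.80 ± 0.150, adjusted p = 0.000202). No P21 library reached the P14 libraries in any of the 4 settings. A further fall at P28 passed the test in GR-Con under DR only, to 5.57 CPM, against 9.86 CPM at P21 (-0.82 ± 0.144, adjusted p = 0.00246). The other 3 values for P28 over P21 were -0.52, -0.44 and -0.35 and did not pass. Inpp5j also had negative values for P21 over P14 in all 4 settings, -0.58 in GR-KO under NR and under DR, -0.30 in GR-Con under NR and -0.34 in GR-Con under DR, and for P28 over P21 it was called lower in GR-Con under DR (-0.50, adjusted p = 0.00794), where Pla2g3 was called, and under NR (-0.53, adjusted p = 0.0149). The part of Inpp5j reads in the Pla2g3 counts was not tested.

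Phyhd1 went the other way and rose between P14 and P21 in both genotypes. In GR-Con it rose to 103 ± 13.8 CPM at P21, against 32.9 ± 10.1 CPM at P14 under NR (SD, n = 3 each; log2 fold change 1.65 ± 0.201, SE, adjusted p = 4.33e-07), and to 100.2 CPM, against 27.4 CPM, under DR (1.87 ± 0.194, adjusted p = 1.26e-08). In GR-KO the rise was to 21.8 CPM at P21, against 12.7 CPM at P14 under NR (0.78 ± 0.209, adjusted p = 0.0128), and to 24.5 CPM, against 12.1 CPM, under DR (1.01 ± 0.197, adjusted p = 0.000416). The call in GR-KO under NR was lost without P14 NR GR-KO replicate 1 (0.66, adjusted p = 0.0983) and without P21 NR GR-KO replicate 1 (0.73, adjusted p = 0.0523). Whether the rise differed between the genotypes was not tested, because the genotype contrast chose the genes. At P28 under NR the GR-Con level fell to 58.1 CPM, against 103 CPM at P21 (-0.83 ± 0.196, adjusted p = 0.0178). That call was lost without P21 NR GR-Con replicate 1, P28 NR GR-Con replicate 1 or P28 NR GR-Con replicate 2 (adjusted p up to 0.112) and with replicate number as a block (-0.71, adjusted p = 0.133). The other 3 settings had -0.11, -0.17 and -0.22 and did not pass.

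Cyp4f15 rose between P14 and P21 in GR-Con. Its mean was 177 CPM at P21 and 102 CPM at P14 under NR (n = 3 each; log2 fold change 0.80 ± 0.134, SE, adjusted p = 6.07e-05), and 165 CPM at P21 and 108 CPM at P14 under DR (0.61 ± 0.125, adjusted p = 0.000621). In GR-KO the values were -0.04 ± 0.134 under NR and -0.06 ± 0.125 under DR, with overlapping libraries. P28 over P21 gave -0.01 to 0.19 in the 4 settings, and none passed.

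Mfsd2a rose in GR-Con under NR, to 49.7 CPM at P21, against 29.3 CPM at P14 (log2 fold change 0.77 ± 0.207, SE, adjusted p = 0.00968), and this call was lost without P14 NR GR-Con replicate 1 (0.62, adjusted p = 0.0771). In that comparison 1 of 10 endothelial markers was called higher and 1 lower (median -0.33). The 3 other settings did not pass, with 0.33 in GR-Con under DR, 0.01 in GR-KO under NR and -0.37 in GR-KO under DR. For P28 over P21 the largest value was in GR-KO under DR, 14.3 CPM at P28 and 9.56 CPM at P21 (0.58 ± 0.185, adjusted p = 0.0700), where every P28 library was above every P21 library. It passed with the DESeq2 Wald test (adjusted p = 0.0325) and in edgeR without P28 DR GR-KO replicate 4 (0.69, adjusted p = 0.0388). In the same comparison 3 of 10 endothelial markers were called higher, Flt1 (0.92), Slco1a4 (1.15) and Slc2a1 (0.35), with a list median of 0.51, and 3 of 10 were called higher in GR-KO under NR (median 1.00), where Mfsd2a had 0.45. Their part in these values was not tested.

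Pld1 fell between P14 and P21 in 3 of the 4 settings. In GR-KO it fell to 46.9 CPM at P21, against 85.8 CPM at P14 under NR (log2 fold change -0.87 ± 0.132, SE, adjusted p = 2.23e-05), and to 44.1 CPM, against 77.1 CPM, under DR (-0.81 ± 0.121, adjusted p = 1.23e-05). In GR-Con under DR it fell to 63.4 CPM at P21, against 95.9 CPM at P14 (-0.60 ± 0.120, adjusted p = 0.000514). GR-Con under NR had 83.5 CPM at P21 and 86.9 CPM at P14 (-0.06 ± 0.130), and 65.5 CPM at P28, all 3 of whose libraries were below those of P21 (-0.35 ± 0.130, adjusted p = 0.140). Fitted on these groups alone, that fall passed (-0.36, adjusted p = 0.0476).

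Mboat1 passed the age test in opposite directions in GR-KO and GR-Con under NR, on low counts. In GR-KO it rose to 6.40 CPM at P21, against 2.95 CPM at P14 (log2 fold change 1.12 ± 0.288, SE, adjusted p = 0.00882). In GR-Con it fell to 2.08 CPM at P21, against 4.38 CPM at P14 (-1.06 ± 0.311, adjusted p = 0.0171), with overlapping libraries. Both calls rested on single libraries. The rise was lost without P14 NR GR-KO replicate 1 (0.95, adjusted p = 0.0810) or P21 NR GR-KO replicate 1 (0.68, adjusted p = 0.195), and the fall without P14 NR GR-Con replicate 1 (-0.63, adjusted p = 0.226) or P21 NR GR-Con replicate 1 (adjusted p = 0.124). With replicate number as a block neither passed (1.07 and -1.04, adjusted p = 0.0582 and 0.0752). Ependymal and choroid plexus markers went the same way in these comparisons, with 4 of 10 called higher in GR-KO (median 1.21) and 1 of 10 called lower in GR-Con (median -1.02), and their part in the Mboat1 values was not tested. Under DR the values were 0.39 in GR-KO and -0.36 in GR-Con, and neither passed.

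Over the 6 genes, P28 over P21 gave 2 calls in 4 settings. In GR-KO 0 of 6 were called under NR (2.74% of all genes) and 0 under DR (3.28%), and the DESeq2 Wald test called 0 and 1. An unadjusted p below 0.05 was reached by 2 members in each, and by 15.7% and 17.6% of all genes. In GR-Con 1 was called under NR (2.36%), Phyhd1, and 1 under DR (3.91%), Pla2g3.

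Rearing was compared as DR minus NR at each age within a genotype, at an adjusted p below 0.05. None of the 6 genes was called in any of the 6 comparisons with edgeR. In GR-KO the share of all genes called was 0% at P14, 0.140% at P21 and 0.649% at P28. No member there had an unadjusted p below 0.05, against 1.68%, 11.1% and 11.6% of all genes. In GR-Con the share called was 0% at P14, 1.25% at P21 and 0.421% at P28. There 0, 2 and 1 members had an unadjusted p below 0.05, against 2.75%, 15.9% and 11% of all genes. The DESeq2 Wald test called 1 member, Pld1, in GR-Con at P21 and 0 in the other comparisons. A missed threshold does not show that rearing left the genes alone, since the SE of these differences was 0.121 or more for every gene.

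**Figure D4:**
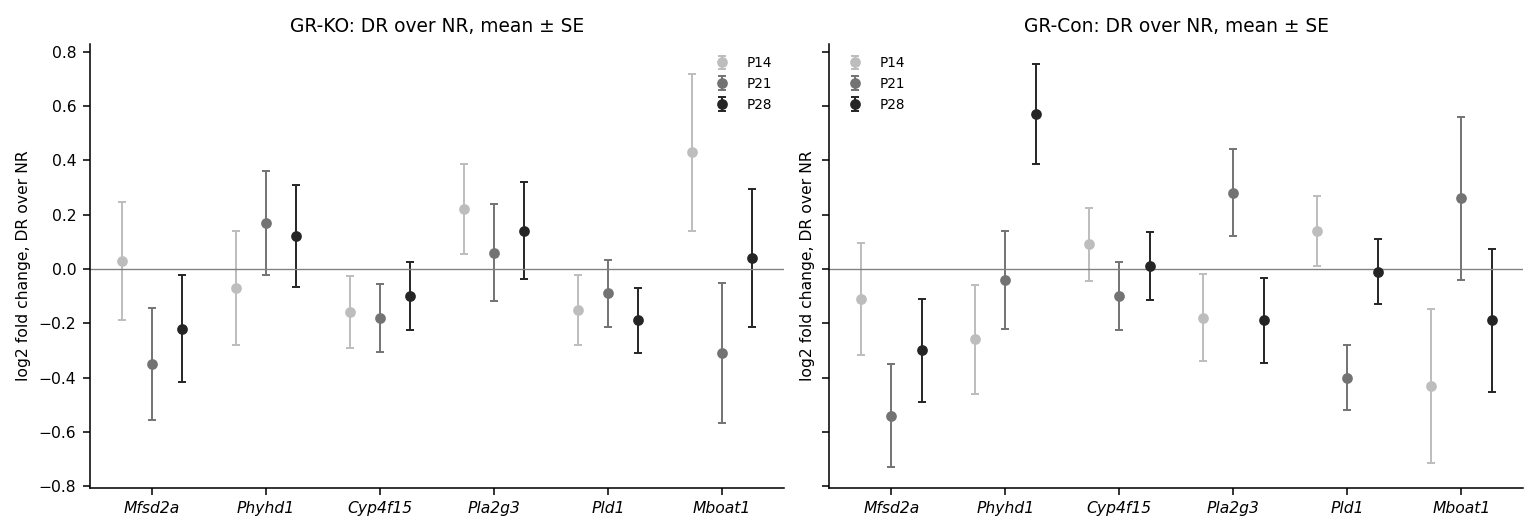
Log2 fold change of DR over NR at each age in GR-KO (left) and GR-Con (right), darker for later ages, with SE from the edgeR fit. Most values lie within 0.4 of 0, and Mfsd2a (-0.54) and Pld1 (-0.40) at P21 and Phyhd1 (0.57) at P28 in GR-Con lie furthest from 0 for their SE.

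The members nearest to the threshold were in GR-Con. At P21, Mfsd2a had 31.9, 38.9, 24.9 and 40.9 CPM under DR, all below the 46.7, 49.2 and 53.2 CPM under NR (log2 fold change -0.54 ± 0.191, SE, adjusted p = 0.148). Pld1 at the same age had 59.9, 71.6, 58.9 and 63.2 CPM under DR, again below the 82.3, 87.4 and 80.8 CPM under NR (-0.40 ± 0.121, adjusted p = 0.0874). Fitted on these groups alone, both passed (adjusted p = 0.0203 for Mfsd2a and 0.00647 for Pld1), and Pld1 passed with the DESeq2 Wald test (adjusted p = 0.0412). In GR-KO at P21 the values were -0.35 ± 0.207 for Mfsd2a, with no overlap, and -0.09 ± 0.123 for Pld1, and whether the genotypes differed in this was not tested. At P28, Phyhd1 had 108, 89.6, 78.7 and 68.1 CPM under DR and 51.2, 47.6 and 75.4 CPM under NR in GR-Con (0.57 ± 0.184, adjusted p = 0.214). It passed without P28 NR GR-Con replicate 3 (0.79, adjusted p = 0.0491). Cyp4f15 had differences of -0.18 to 0.09 over the 6 comparisons, and Pla2g3 of -0.19 to 0.28.

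Over the 12 group means, which share genotype, age and rearing as axes, 3 of the genes followed each other closely. Pearson's r of log2 CPM was 0.94 between Mfsd2a and Cyp4f15, 0.93 between Phyhd1 and Cyp4f15 and 0.86 between Mfsd2a and Phyhd1. Pla2g3 and Pld1, both higher at P14, had r = 0.90. Mboat1 was negatively related to all the others, with r from -0.70 to -0.60. Since the genotype contrast chose the genes, these values are descriptions only.

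Among 11885 genes with at least 5 CPM in a group, those most like Mfsd2a over the 12 groups were Nrros, a protein that holds latent TGF-beta at the cell surface (r = 0.986), the integrin subunit Itgav (0.983) and the chloride channel gene Ttyh3 (0.976). Nrros had 4.59 CPM in GR-KO and 26.8 CPM in GR-Con at P21 under NR. For Pla2g3 they were the G-protein subunit Gnb4 (0.992), Inpp5j (0.974) and Hint1 (0.963). Pld1 was most like the cystathionine lyase gene Cth (0.948), Dock9 (0.935) and Mlec (0.934). Phyhd1 was most like Elmod3 (0.986), the scaffold gene Ksr1 (0.985) and Prelid3a (0.985). Cyp4f15 was most like Fbln1 (0.978), the transcription factor gene Klf15, a known glucocorticoid target in other tissues (0.969), and the ion channel gene Asic2 (0.969), which had 184 CPM in GR-KO and 627 CPM in GR-Con at P21 under NR. Mboat1 had looser matches in Bbox1, the last enzyme of carnitine synthesis (0.887), Notch2 (0.882) and Arhgap6 (0.877).

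Other genes of lipid handling were followed in 6 lists drawn up from general knowledge, with earlier results of these data known. Of 179 genes listed, 171 were in the table and 156 were tested. In GR-KO at P21 under NR, 8 of the 156 were called higher and 7 lower, with a median log2 fold change of 0.03, against 798 higher and 439 lower of 17106 genes and a median of 0.015. At P21 under DR 9 were higher and 5 lower, against 735 higher and 407 lower of all 17106 genes. At P14, 0 were called under either rearing, against 79 higher and 111 lower of all genes under NR and 6 and 41 under DR. At P28 under NR 8 were higher and 1 lower, against 581 and 264 of all genes. At P28 under DR 5 were higher and 3 lower, against 174 and 312 of all genes.

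**Figure D5:**
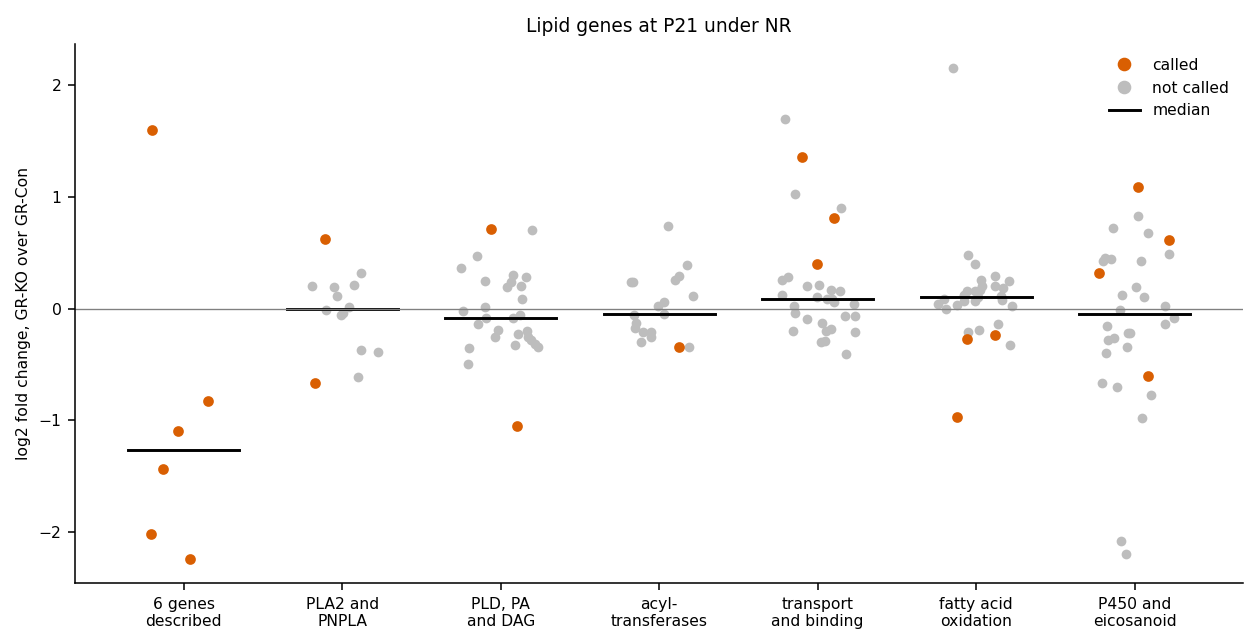
Log2 fold change of GR-KO over GR-Con at P21 under NR for the 6 genes described and for the tested genes of 6 lipid lists. Called genes are orange, and black bars are list medians, which lie between -0.08 and 0.10 for the lists.

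Among phospholipases A2 and patatin-like lipases, 1 of 14 was higher and 1 lower. Pla2g4e, a cytosolic phospholipase A2, averaged 10.3 ± 2.33 CPM in GR-KO and 16.2 ± 1.63 CPM in GR-Con (SD, n = 3 each; log2 fold change -0.67 ± 0.193, SE, adjusted p = 0.0266), and the patatin-like lipase Pnpla3 12.1 CPM in GR-KO and 7.88 CPM in GR-Con (0.62 ± 0.189, adjusted p = 0.0380). The near relatives Pla2g4a, Pla2g5, Pla2g6 and Pla2g7 had -0.06, -0.37, 0.20 and 0.19 and did not pass. Pla2g7, the platelet-activating factor hydrolase of plasma, was much more abundant, at 294 CPM in GR-KO and 258 CPM in GR-Con.

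In the phospholipase D, phosphatidate and diacylglycerol list, 1 of 29 was higher and 1 lower. Lpin3, a phosphatidate phosphatase, averaged 7.74 ± 2.90 CPM in GR-KO and 16.1 ± 1.64 CPM in GR-Con (SD, n = 3 each; log2 fold change -1.05 ± 0.215, SE, adjusted p = 0.00124), and it was also lower at P21 (-1.30) and P28 (-1.18) under DR. Plpp1, a phosphatase of phosphatidic acid and its lysolipids at the cell surface, was higher, at 31.3 CPM in GR-KO and 19.1 CPM in GR-Con (0.71 ± 0.149, adjusted p = 0.00152). Pld2, Pld3 and Pld4 had 0.36, -0.34 and 0.25 and did not pass. Of the acyltransferases 1 of 19 was lower, Agpat5 (-0.34 ± 0.0946, adjusted p = 0.0219), and the relatives of Mboat1, Mboat2 and Mboat7, had -0.25 and 0.02.

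Among transport and binding proteins 3 of 31 were higher, 2 genes of the Abc transporter family and Fabp7, the brain fatty acid binding protein of immature glia. Fabp7 averaged 46.3 ± 3.07 CPM in GR-KO and 18.0 ± 1.51 CPM in GR-Con (SD, n = 3 each; log2 fold change 1.36 ± 0.191, SE, adjusted p = 5.79e-06), and it was also higher at P28 under NR (0.65) and at P21 (1.19) and P28 (0.84) under DR. Abca1, the cholesterol exporter, had 542 CPM in GR-KO and 412 CPM in GR-Con (0.40 ± 0.125, adjusted p = 0.0451), and Abca8a was higher too (0.81 ± 0.254, adjusted p = 0.0429). Mfsd2b, the closest relative of Mfsd2a and a transporter of sphingosine phosphate in blood cells, had 3.92 CPM in GR-KO and 3.79 CPM in GR-Con (0.04 ± 0.199).

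Among genes of peroxisomal and mitochondrial fatty acid oxidation, the peroxisomal genes Hsd17b4, at 87.5 CPM in GR-KO and 103 CPM in GR-Con (log2 fold change -0.24 ± 0.0640, SE, adjusted p = 0.0152), and Scp2, at 50.6 CPM in GR-KO and 61.0 CPM in GR-Con (-0.27 ± 0.0683, adjusted p = 0.00944), were lower by a small amount. Phyh, the relative of Phyhd1, had 24.0 CPM in GR-KO and 24.0 CPM in GR-Con.

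Of the P450, epoxide hydrolase and eicosanoid genes, 3 of 32 were higher and 1 lower. Cyp2j9, a P450 of fatty acid oxidation, averaged 95.6 ± 8.27 CPM in GR-KO and 144 ± 15.4 CPM in GR-Con (SD, n = 3 each; log2 fold change -0.60 ± 0.134, SE, adjusted p = 0.00345). Ephx2, which opens the epoxides such enzymes make, was higher, at 88.3 CPM in GR-KO and 57.7 CPM in GR-Con (0.61 ± 0.105, adjusted p = 0.000128), as was the leukotriene enzyme Lta4h (0.32 ± 0.0876, adjusted p = 0.0168). Hpgd, which inactivates prostaglandins and was named after its value was seen, was also called (1.09 ± 0.332, adjusted p = 0.0384) but its libraries overlapped. The relatives of Cyp4f15, Cyp4f13, Cyp4f14, Cyp4f16 and Cyp4f17, had -0.01, 0.10, 0.43 and 0.43 and did not pass.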

How the data were processed

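The deposited values are gene counts, whole numbers that the authors made. Per the submitters' notes and the study's reporting summary, STAR (2.7.9a) placed reads on mm10 and featureCounts (2.0.0) counted them over refGene gene bodies. Of 25239 genes, 3732 had no count in any library.

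One edgeR model (version 4.0.16, R 4.3.3) held all 40 libraries as 12 groups, after filterByExpr and TMM scaling (factors 0.882 to 1.07), with quasi-likelihood F tests. Its biological coefficient of variation was 0.132. Adjustment was by Benjamini-Hochberg over all 17106 genes kept. The SE of a log2 fold change was its size over the root of F, and errors of CPM are SD over pools. The steps were tested on simulated data. Pools of a group differed beyond counting noise in all 48 pairs (chi-square per degree of freedom 7.65 to 152).

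The members and lists were chosen with earlier results of these data known. Genes named were the members, near relatives, the 3 genes most alike to each member over log2 CPM group means (prior count 2, at least 5 CPM in a group), and up to 4 genes per list with the largest difference among those called at P21 under NR with no overlap of libraries, except for an item that is not reported here. Alternatives were DESeq2 (1.42.0) size factors or Wald test, no filter, a replicate block, only the groups compared, the 20 most abundant genes removed, removal of 3 libraries found apart in earlier work (replicate 3 of P14 NR GR-KO and, for GR-Con, replicate 1 of P21 NR and replicate 2 of P21 DR) and removal of each library.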

Additional observations from a re-analysis of the deposited data

Results flagged for a closer look

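In GR-Con at P21 under DR, replicate 2 had 3.07 CPM of Mboat1, above the 2.36 to 2.38 CPM of the other 3 libraries by far more than those differed. It was the only library to stand out among 24 sets of 4 libraries, and chance singles out about 1 set in 20. The same library is among the 3 removed together as an alternative. It had 19795 genes detected, against at most 18742 in any other library, and whether this bears on its Mboat1 value was not tested.

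All P21 libraries of GR-Con under NR were above all P14 libraries for Mfsd2a (log2 fold change 0.77), and all P21 libraries of GR-KO under DR were below all P14 libraries (-0.37). These groups differ in genotype and in rearing, and the difference between both changes was not tested.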

How the results depend on the processing

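Of the counts of members called, 133 of 140 stayed within 1.5 times under the alternatives other than removal of 1 library, as did 125 of 134 with 1 library removed. Of single log2 fold changes, 818 of 840 and 757 of 804 were scored as keeping direction and call. Values of GR-KO against GR-Con all counted as kept in these totals, even where calls were lost, as at P14 under DR. The exceptions among counts were GR-KO against GR-Con at P14 under DR with only the groups compared (0 members called), P28 over P21 in GR-Con under NR (0 with the replicate block or without the 3 libraries, 2 with only the groups compared), P28 over P21 in GR-KO under DR (1 with the DESeq2 Wald test) and DR against NR at P21 in GR-Con (2 with only the groups compared, 1 with the DESeq2 Wald test). The cause was not tested. Removing 1 library gave 1 to 3 members in GR-KO against GR-Con at P14 under DR (1 without P14 DR GR-Con replicate 1), 2 to 4 for P21 over P14 in GR-KO under NR (2 without replicate 1 of P14 or of P21), 3 to 5 in GR-Con under NR (3 without P14 NR GR-Con replicate 1), 0 to 1 for P28 over P21 in GR-Con under NR and in GR-KO under DR, and 0 to 1 for DR against NR at P28 in GR-Con.

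Replicate numbers did not pair the libraries. Deviations from group means correlated at a mean of 0.0218 (-0.185 to 0.303) over 56 pairs with the same number and -0.00846 over 144 pairs with different numbers, and a library was closest to its own number in 33 of 112 cases. Among age and rearing comparisons, none of the values that changed sign was called, before or after. With the replicate block these were, for P21 over P14, Cyp4f15 in GR-KO under NR (0.06) and DR (0.03), and for P28 over P21, Phyhd1 in GR-KO under NR (0.01) and DR (0.09) and in GR-Con under DR (0.01), Mfsd2a (0.09) and Cyp4f15 (0.06) in GR-Con under NR, and Mboat1 in GR-KO under DR (-0.07). Without the 3 libraries they were Cyp4f15 for P28 over P21 in GR-Con under NR (0.10), and Mboat1 (-0.10) and Cyp4f15 (0.04) for DR against NR at P21 in GR-Con.

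With 1 library removed, Pld1 in GR-KO against GR-Con at P14 under NR changed sign (-0.11 to 0.06). Signs also changed for P21 over P14 in GR-KO under NR for Mfsd2a (-0.07 to 0.08) and Cyp4f15 (-0.09 to 0.01), in GR-KO under DR for Cyp4f15 (-0.10 to 0.04) and in GR-Con under NR for Pld1 (-0.13 to 0.01). For P28 over P21 they changed for Mboat1 in GR-KO under NR (-0.54 to 0.11) and DR (-0.12 to 0.10), and for Mfsd2a (-0.29 to 0.12) and Cyp4f15 (-0.12 to 0.10) in GR-Con under NR. For DR against NR in GR-KO they changed at P14 for Mfsd2a (-0.07 to 0.08) and Phyhd1 (-0.18 to 0.05), at P21 for Pla2g3 (-0.10 to 0.21), Pld1 (-0.15 to 0.02) and Mboat1 (-0.51 to 0.15), and at P28 for Mboat1 (-0.13 to 0.17). In GR-Con they changed at P14 for Mfsd2a (-0.32 to 0.11) and Cyp4f15 (-0.09 to 0.33), at P21 for Phyhd1 (-0.15 to 0.03) and Cyp4f15 (-0.18 to 0.02), and at P28 for Pld1 (-0.08 to 0.07) and Cyp4f15 (-0.05 to 0.10). Depth limits Mboat1 most, with 20 to 306 counts in a library.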
